A study of Mus musculus with 20 samples.

Results

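Osteosarcomas that arose in mice carrying 1 p53R245W allele (R245W, 3 tumours) were compared with osteosarcomas from mice carrying 1 null p53 allele (p53 het, 4 tumours), gene by gene, in RNA-seq read counts. The 7 tumours are those of the 20 libraries whose labels give these 2 genotypes. The series asks how 3 p53 hotspot mutants differ in vivo; its other libraries are 6 p53R172H/+ tumours, 5 p53R270H/+ tumours and 2 libraries of an osteosarcoma cell line. All tumours were primary tumours of mice with a mixed genetic background, given as C57BL/6J and 129S/SvJae mix. The p53 het mice were p53+/- and the R245W mice p53R245W/+, so both kinds of mouse began with 1 wild-type allele. Whether a tumour kept that allele, and the sex, age, tumour site and sequencing batch, are not given in the labels. The titles of p53 het 1 and 2 and of all R245W tumours carry a serial number, and those of p53 het 3 and 4 do not, so the comparison was also made against p53 het 1 and 2 alone, and its values are given for the genes that passed and for most lists.

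The protein p53 is a transcription factor that halts the cell cycle or triggers cell death after DNA damage by activating genes such as Cdkn1a and Mdm2. Hotspot missense mutations hit the part of the protein that binds DNA, weaken that binding and leave a stable mutant protein that often accumulates in tumours. The arginine changed to tryptophan in R245W corresponds to a hotspot arginine of human p53 that contacts DNA, and mice that lack 1 copy of the gene develop sarcomas, bone tumours among them.

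The codon that the R245W allele alters lies in the coding sequence of Trp53 at chr11:69589180-69589242 (GRCm38, plus strand). It is shown here in the reference sequence, with that codon in capitals, to place the mutation that separates the groups.
Trp53: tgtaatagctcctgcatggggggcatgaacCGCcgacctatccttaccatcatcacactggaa

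Total counts were 21964474 to 23956389 in the R245W libraries and 22788668 to 29211623 in the p53 het libraries. Osteoblast genes were read in every tumour: Col1a1, the main collagen of bone, at 13729 to 48958 counts per 1000000 counts of the library (CPM) in R245W and 20433 to 72173 CPM in p53 het, and Sp7, a transcription factor of osteoblasts, at 151 to 347 and 159 to 343 CPM. The share of counts on ribosomal RNA was 0.446 to 1.18% in R245W and 0.0697 to 0.274% in p53 het, without overlap, and its part in the results below was not tested. p53 het 4 stood apart in skeletal muscle genes, which summed to 8171 CPM against 305 to 586 CPM in the other p53 het tumours. Nothing in the labels pairs the tumours. The p-values rest on the spread between tumours of the same genotype, estimated from all 18 tumours and not from these 7 alone.

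Of 20616 genes tested, 15 passed an adjusted p threshold of 0.05 in edgeR's quasi-likelihood test (0.0728% of the genes tested), 7 higher (0.034%) and 8 lower (0.0388%) in R245W. The number was 5 without R245W 1, 8 without p53 het 3, 29 without p53 het 1 and 30 without p53 het 2, and 363 in DESeq2. With only the 7 tumours compared in the fit it was 4, and Ndufs5 was not among them (adjusted p = 0.0993, edgeR). By kind, 5 are protein-coding genes, 7 are pseudogenes and 3 are other noncoding genes. The protein-coding genes were Foxo1, higher in R245W, and Ndufs5, Rhbdl2, Rpl34 and Zcchc17, lower in R245W. Of the 7 pseudogenes, 6 were higher, and pseudogenes made up 5.81% of the genes tested. An unadjusted p under 0.05 was reached by 2577 genes (12.5%), and in 1879 genes (9.11%) no R245W library overlapped a p53 het library. The median log2 fold over all genes tested was -0.04, 52.7% of genes lay below 0 and 47.3% above.

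Against p53 het 1 and 2 alone, 9 of 21287 genes passed (0.0423%), 5 higher (0.0235%) and 4 lower (0.0188%). Of these, 8 also passed against all 4 p53 het tumours: Ndufs5, Rhbdl2, G530011O06Rik, Gm12904, Rpl3-ps1, Gm6969, Rpl15-ps2 and Gm10020. The remaining one was BC002163, a pseudogene related to Ndufs5. Log2 folds were 6.64 for Rpl3-ps1, 7.41 for Gm6969, 3.09 for Rpl15-ps2, 7.34 for Gm10020, -4.92 for G530011O06Rik and -7.28 for Gm12904. In that order the adjusted p-values (edgeR) were 0.000104, 0.0168, 0.0168, 0.0493, 0.0297 and 0.0404. Those of the other genes are given below. In this smaller comparison 23.5% of genes did not overlap between the groups, the median log2 fold was 0.01, and 49.2% of genes lay below 0 and 50.6% above.

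**Figure D1:**
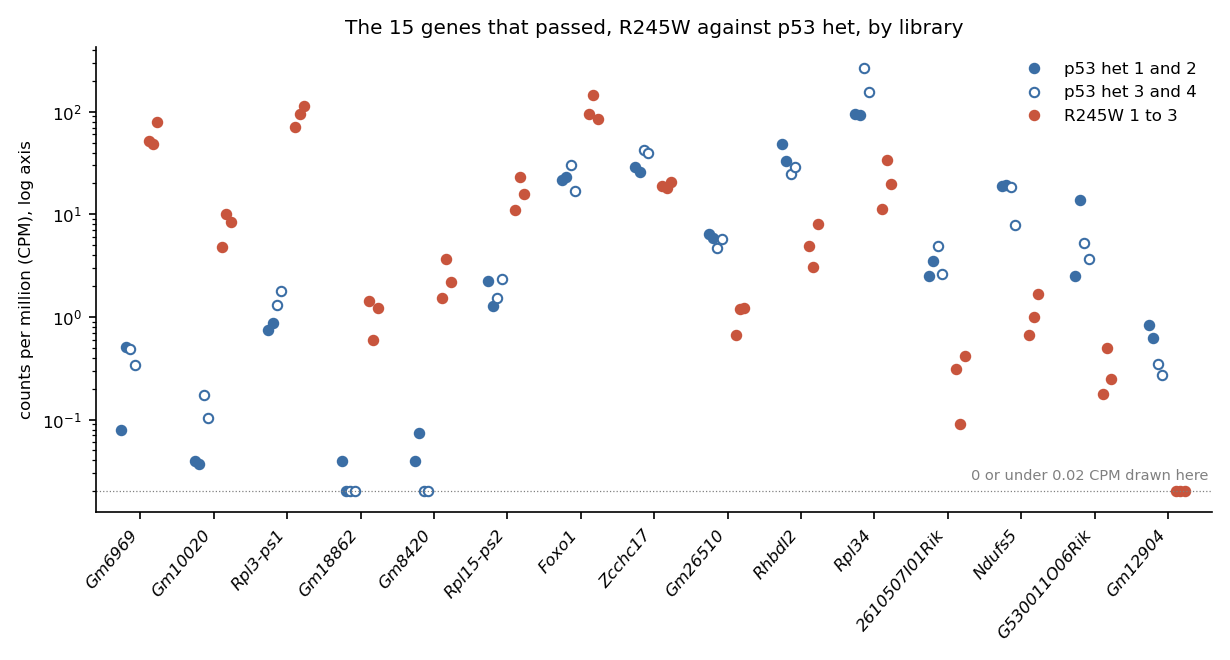
CPM (log axis) of the 15 genes that passed against p53 het, by library, with filled blue circles for p53 het 1 and 2, open blue circles for p53 het 3 and 4 and red circles for the 3 R245W tumours. No gene overlaps between the groups, and Gm12904 has 0 counts in all 3 R245W libraries.

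Ndufs5, a small accessory subunit of respiratory complex I (chr4:123712710-123718202, minus strand), was the protein-coding gene with the lowest p. It was read at 0.669, 1.002 and 1.67 CPM in R245W 1 to 3 and at 19.05, 19.1, 18.6 and 7.91 CPM in p53 het 1 to 4. All R245W tumours lay below all p53 het tumours, and p53 het 4 lay below the other 3. The log2 fold was -3.97 ± 0.37 (SE; adjusted p = 5.15e-05, edgeR) against p53 het and -4.27 ± 0.31 (adjusted p = 8.96e-06) against p53 het 1 and 2. The R172H tumours ranged from 18.7 to 23.6 CPM and the R270H tumours from 10.1 to 15.7 CPM, all above R245W.

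Ndufs5 has a processed pseudogene, BC002163, a copy of its messenger RNA inserted at chr16:42955631-42955949, inside the gene Zbtb20 and on the same strand. The coding sequence of Ndufs5 and BC002163 differ at 2 of 319 aligned bases (99.4% identity). Both differences fall in the stretch below, shown because they tell the 2 genes apart within the aligned part. A read that lies wholly within the 319 aligned bases and crosses neither difference matches both genes equally. The Ndufs5 transcript is 525 bases long, so part of it lies outside the alignment. Capitals mark the bases that differ; Ndufs5 is read from chr4:123715958-123716017 (minus strand) and BC002163 from chr16:42955693-42955752 (plus strand).
Ndufs5: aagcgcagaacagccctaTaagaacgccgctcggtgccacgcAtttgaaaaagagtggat
BC002163: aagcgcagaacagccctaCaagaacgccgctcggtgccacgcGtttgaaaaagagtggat

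BC002163 was read at 21.8, 21.2 and 18.4 CPM in R245W 1 to 3, and at 0.197, 0.0736, 0.307 and 12.7 CPM in p53 het 1 to 4. The tumours that were low in Ndufs5 were those high in BC002163, p53 het 4 included. The log2 fold of BC002163 was 2.67 ± 1.10 against all p53 het tumours, which did not pass (adjusted p = 0.332, edgeR), and 7.05 ± 0.96 against p53 het 1 and 2, which did (adjusted p = 0.0119).

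Summed, the counts of Ndufs5 and BC002163 came to 22.5, 22.2 and 20.04 CPM in R245W and to 19.2, 19.2, 18.96 and 20.6 CPM in p53 het. The sum of R245W 3 lay between those of p53 het 3 and 4, so the groups overlapped, and the difference of the mean log2 sums was 0.14. The share of the sum that fell on BC002163 was 97.0, 95.5 and 91.7% in R245W, against 1.02, 0.383 and 1.62% in p53 het 1 to 3 and 61.6% in p53 het 4. In R172H the share ran from 0.933 to 4.23%, and in R270H from 0 to 2.16%. The way the counting program treated reads that match both genes is not given in the sources used here, so how much Ndufs5 RNA differed cannot be told from the Ndufs5 counts alone.

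The same search, made for the genes that passed after their values were seen, placed 11 of the 16 genes that passed in either comparison in 8 groups. In each group every sequence is at least 90% identical to at least 1 other member. Counts of genes with such copies are uncertain, because reads may be split between them. Pairs of a protein-coding gene and a processed pseudogene that differ at 2 aligned bases are shown next. Each is shown over a stretch of 60 bases, with capitals at the bases that differ.

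Rpl3 encodes a protein of the large ribosomal subunit, and Rpl3-ps1 (chrX:13202571-13203780) is a processed pseudogene that differs from it at 2 of 1210 bases. The stretches are chr15:80082500-80082559 (minus strand) and chrX:13202598-13202657 (plus strand).
Rpl3: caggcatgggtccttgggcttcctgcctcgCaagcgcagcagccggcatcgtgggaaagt
Rpl3-ps1: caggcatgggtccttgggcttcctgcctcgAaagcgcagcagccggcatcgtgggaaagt

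Rpl3-ps1 was read at 71.4, 94.02 and 113.1 CPM in R245W and at 0.749, 0.883, 1.32 and 1.78 CPM in p53 het. Each R245W tumour lay far above each p53 het tumour, and the highest value in any R172H or R270H tumour was 2.11 CPM. The log2 fold was 6.22 ± 0.44 (adjusted p = 1.1e-06, edgeR). All copies of Rpl3 together took 39.6, 22.9 and 43.4% of the summed Rpl3 counts in R245W, and 0.428 to 0.857% in p53 het. The sums overlapped: 181, 413 and 261 CPM in R245W against 212 to 315 CPM in p53 het.

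Cox7a2l encodes a protein that joins respiratory complexes III and IV into supercomplexes, and Gm6969 (chr12:24638669-24639010) is its processed pseudogene, with 2 differences in 336 aligned bases and 1 gap. The stretches are chr17:83502607-83502666 and chr12:24638673-24638732, both on the minus strand.
Cox7a2l: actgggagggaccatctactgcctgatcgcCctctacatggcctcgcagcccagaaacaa
Gm6969: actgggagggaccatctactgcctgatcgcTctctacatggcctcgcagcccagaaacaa

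Gm6969 was read at 51.6, 48.4 and 79.4 CPM in R245W and at 0.0789, 0.515, 0.483 and 0.342 CPM in p53 het, a log2 fold of 7.28 ± 0.76 (adjusted p = 0.00016, edgeR). No R172H or R270H tumour exceeded 0.698 CPM. The copy held 32.8, 23.5 and 55.0% of the Cox7a2l counts in R245W and at most 0.309% in p53 het. The sums of Cox7a2l and its copies overlapped, at 144 to 206 CPM in R245W and 115 to 184 CPM in p53 het.

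Rpl15, another protein of the large ribosomal subunit, has 3 pseudogenes that passed, all higher in R245W: Gm10020 (chr15:52477617-52478228), Rpl15-ps2 (chr9:72060937-72061549, inside Tcf12 on the opposite strand) and Gm8420 (chr1:51940664-51941261). Gm10020 differs from the Rpl15 coding sequence at 2 of 612 bases and Rpl15-ps2 at 8 of 613. The stretches below come from the spliced Rpl15 transcript, whose bases lie within chr14:18270008-18270302 (minus strand), and from chr15:52478021-52478080 (minus strand).
Rpl15: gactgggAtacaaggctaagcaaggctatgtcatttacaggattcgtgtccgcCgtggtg
Gm10020: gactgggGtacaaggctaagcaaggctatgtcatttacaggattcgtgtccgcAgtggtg

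Gm10020 was read at 4.77, 9.97 and 8.52 CPM in R245W and at 0.0368 to 0.176 CPM in p53 het (log2 fold 6.33 ± 0.83, adjusted p = 0.00262, edgeR). Rpl15-ps2 was read at 11.1, 22.9 and 15.9 CPM against 1.29 to 2.36 CPM (log2 fold 3.10 ± 0.33, adjusted p = 0.000176). Gm8420 had 167 counts in R245W and 3 in p53 het, a CPM ratio of 85.1 with a counting interval of 28.6 to 417 (exact, 95%, counting error only). Its adjusted p was 0.0183 in edgeR, and the call was lost without R245W 1, R245W 2, R245W 3 or p53 het 3 (0.0538 to 0.0881) and against p53 het 1 and 2 (log2 fold 5.15, adjusted p = 0.158). In none of the 3 did the groups overlap. Together the copies took 38.8, 32.6 and 41.7% of the Rpl15 counts in R245W and 5.83 to 11.8% in p53 het, while the sums overlapped (53.1 to 126 CPM against 36.6 to 81.9 CPM).

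Rpl34, also a protein of the large subunit (chr3:130726831-130730398), was itself lower in R245W, at 11.3, 33.6 and 19.95 CPM against 96.1, 92.0, 266 and 154 CPM in p53 het. The groups did not overlap, and the log2 fold was -2.88 ± 0.47 (adjusted p = 0.0202, edgeR). Against p53 het 1 and 2 it was -2.28 ± 0.46 and did not pass (adjusted p = 0.158). The call was also lost without R245W 1 (0.123), R245W 3 (0.144) or p53 het 3 (0.0524). Its pseudogene Rpl34-ps1 (chr6:71124610-71124963) differs at 2 of 354 bases, 1 of which lies in the stretches chr3:130729055-130729114 (minus strand) and chr6:71124711-71124770 (plus strand).
Rpl34: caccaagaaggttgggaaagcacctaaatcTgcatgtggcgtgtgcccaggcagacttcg
Rpl34-ps1: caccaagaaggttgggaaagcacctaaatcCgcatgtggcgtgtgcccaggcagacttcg

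Rpl34-ps1 was read at 21.3, 56.5 and 24.3 CPM in R245W and at 0.0394, 14.0, 0.834 and 23.9 CPM in p53 het 1 to 4, so p53 het 2 and 4 held it as well. Copies took 65.9, 63.9 and 56.3% of the Rpl34 counts in R245W and 0.286, 13.8, 0.526 and 13.7% in p53 het. Unlike the sums of the other groups of copies described so far, that of Rpl34 did not overlap: 33.1, 93.2 and 45.7 CPM in R245W against 96.4, 107, 267 and 179 CPM in p53 het. The difference of the mean log2 sums was -1.52, with R245W 2 and p53 het 1 lying close together.

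**Figure D2:**
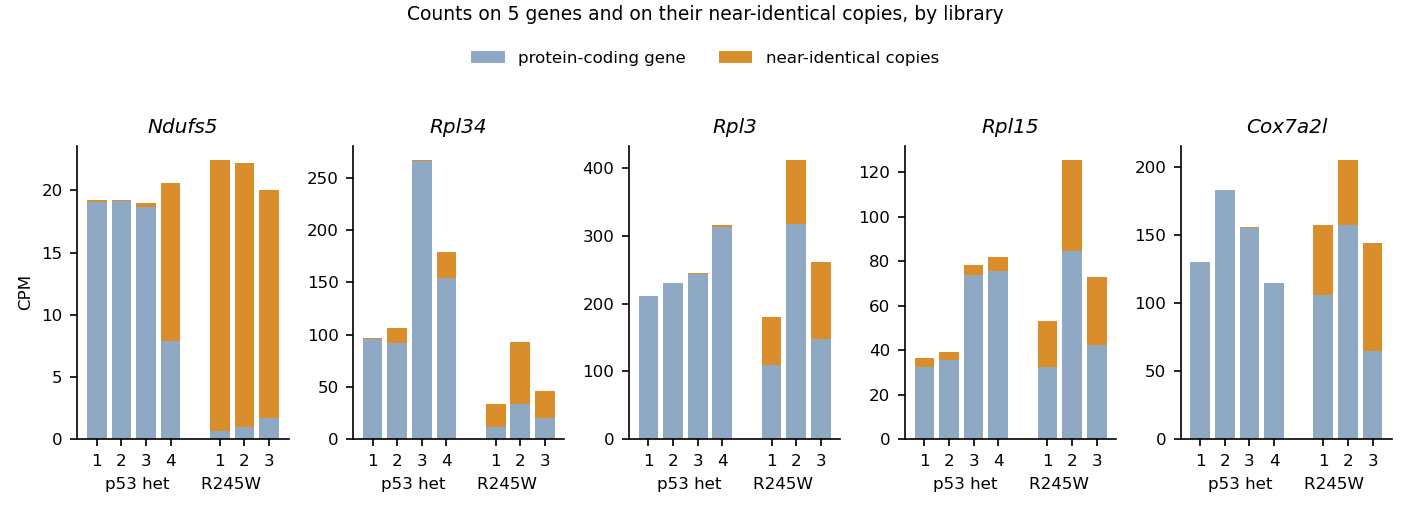
CPM on 5 protein-coding genes (blue) and on their near-identical copies (orange), stacked, for p53 het 1 to 4 and R245W 1 to 3. In R245W the copies take 22.9 to 97.0% of each sum, while the height of the whole bar overlaps between the groups for each gene other than Rpl34.

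Gm12904 (chr4:123838104-123839502) is a pseudogene that resembles Ago2, a core protein of RNA silencing. It had 0 counts in all 3 R245W libraries and 54 in p53 het (0.828, 0.626, 0.351 and 0.274 CPM), which makes it at least 11.8-fold lower in R245W, with a floor of 3 counts over the group. Its adjusted p was 0.028 in edgeR, and the call was lost without R245W 1, R245W 2, R245W 3 or p53 het 3 (0.0524 to 0.137). G530011O06Rik (chrX:169975043-169978917), a noncoding transcript inside Mid1 on the opposite strand, was read at 0.178, 0.501 and 0.250 CPM in R245W and at 2.52, 13.9, 5.22 and 3.66 CPM in p53 het (log2 fold -4.47 ± 0.72, adjusted p = 0.0199, edgeR), a call lost without any 1 of the R245W tumours (0.0589 to 0.137). Over 309 bases it is identical to Gm21748 and Gm21860 on chromosome Y, which had 0 CPM in every R245W and p53 het library. Gm18862, an unprocessed pseudogene (chr6:86351851-86352984), had 74 counts in R245W and 1 in p53 het, a ratio of 113.2 with an interval of 19.7 to 4529. Its adjusted p was 0.0202 in edgeR, and the call was lost without R245W 1, R245W 3, p53 het 3 or p53 het 4 (0.0826 to 0.102) and against p53 het 1 and 2 (log2 fold 5.33, adjusted p = 0.301). The 2 remaining noncoding genes, 2610507I01Rik and Gm26510, were lower in R245W by log2 folds of -3.72 ± 0.58 and -2.56 ± 0.44 (adjusted p = 0.0171 and 0.028, edgeR). Against p53 het 1 and 2 neither passed, at -3.63 and -2.76 (adjusted p = 0.0663 and 0.0769). The call of 2610507I01Rik was lost without R245W 1 (0.0944) or R245W 2 (0.0881), and that of Gm26510 without R245W 1, R245W 2, R245W 3 or p53 het 3 (0.0524 to 0.137). Whether the counting used strand is not given in the sources used here, so reads from genes that overlap on opposite strands, as for 6 of the 16 genes, cannot be told apart.

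Rhbdl2, a rhomboid protease of the plasma membrane (chr4:123787874-123829904), was read at 4.90, 3.10 and 7.97 CPM in R245W and at 48.7, 32.9, 24.8 and 28.7 CPM in p53 het. The groups were well apart, and no near-identical copy was found for it. The log2 fold was -2.77 ± 0.40 (adjusted p = 0.00708, edgeR), or 6.81-fold lower, and against p53 het 1 and 2 it was -3.11 ± 0.43 (adjusted p = 0.0119). The call was lost without R245W 1 (adjusted p = 0.0739) or R245W 2 (0.0583).

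Rhbdl2 lies 93.4 kb from Ndufs5, gene centre to centre, and Gm12904 lies just beyond Rhbdl2 on chromosome 4. Of the 19 protein-coding genes tested within 1 Mb of Ndufs5, 15 lay below 0 and 4 above, with a median log2 fold of -0.22. Apart from Rhbdl2 none passed, and 1 other did not overlap in the same direction: Rragc, a GTPase of nutrient signalling to mTORC1, chosen here after its value was seen, at 68.3 CPM in R245W and 89.2 CPM in p53 het (means; log2 fold -0.46 ± 0.15, adjusted p = 0.243). Among all genes tested, 2.9% did not overlap in this direction, and among the protein-coding genes tested 3.22%.

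Zcchc17, a zinc-knuckle protein of the nucleolus, lies on the same chromosome (chr4:130315383-130359943) and was read at 18.99, 18.3 and 20.8 CPM in R245W and at 29.1, 25.6, 42.2 and 40.1 CPM in p53 het. The groups did not overlap, and the log2 fold was -0.90 ± 0.16 (adjusted p = 0.0395, edgeR). It did not pass against p53 het 1 and 2 (-0.67 ± 0.16, adjusted p = 0.301) and kept its call in 2 of 7 fits that left out 1 library, those without p53 het 1 or p53 het 2. Of 28 protein-coding genes within 1 Mb of it, 22 lay below 0, and 5 did not overlap in that direction. The same held for 2.9% of all genes tested and 3.22% of the protein-coding genes tested. In all, chromosome 4 held 4 of the 15 genes that passed and 1180 of the 20616 genes tested. Over its 822 protein-coding genes with a mean of at least 1 CPM, the median log2 fold was -0.27. The R245W tumours lay below every p53 het tumour in 7.66% of them and above in 1.70%. The shares were 3.22% and 4.36% of all protein-coding genes tested, whatever their CPM, and 2.9% and 6.21% of all genes tested. The medians of the other autosomes and X ran from -0.29 on chromosome 14 to 0.14 on chromosome 16.

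**Figure D3:**
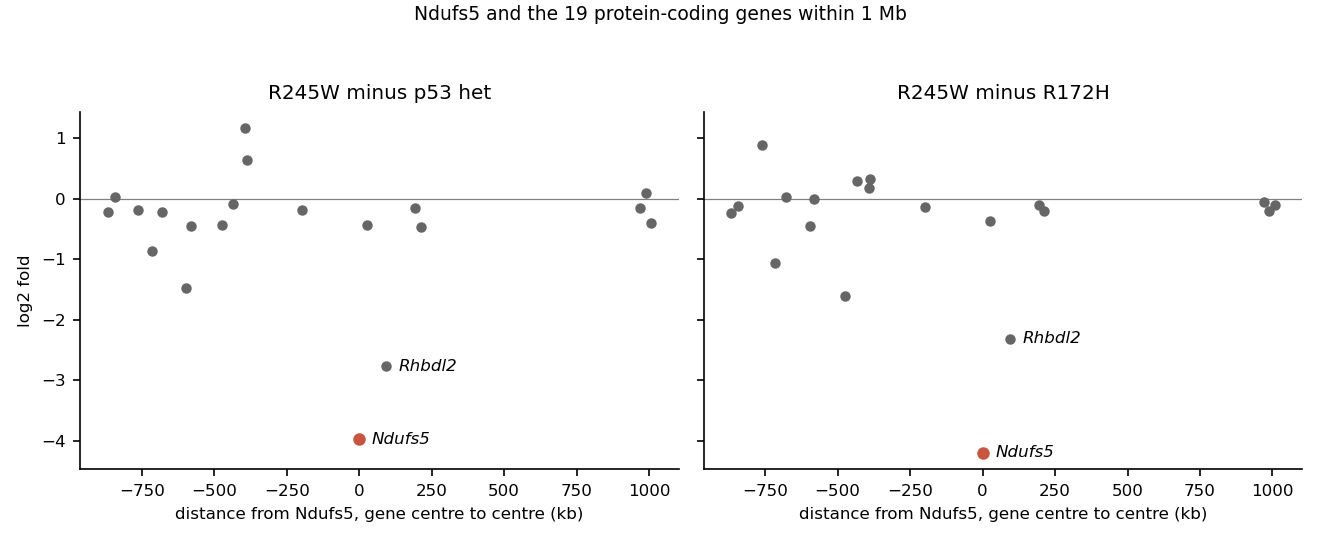
Log2 fold (R245W minus p53 het, left, and R245W minus R172H, right) of Ndufs5 in red and of the 19 protein-coding genes within 1 Mb in grey, against the distance from Ndufs5 in kb. Ndufs5 and Rhbdl2 lie at -3.97 and -2.77 on the left, away from the other 18 genes.

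Foxo1, a transcription factor that insulin signalling holds out of the nucleus, was the one protein-coding gene that passed as higher in R245W (chr3:52268336-52353221). It was read at 94.1, 145 and 85.2 CPM in R245W and at 21.6, 23.1, 30.3 and 16.98 CPM in p53 het. The lowest R245W tumour lay above the highest p53 het tumour, the log2 fold was 2.14 ± 0.37 and the adjusted p was 0.0305 (edgeR), or 4.41-fold higher. This call rested on every library: it was lost in all 7 fits that left out 1 library (adjusted p = 0.0519 to 0.139) and against p53 het 1 and 2 alone (log2 fold 2.11 ± 0.48, adjusted p = 0.295).

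In the 27 genes of insulin signalling and Foxo factors, 18 lay above 0 and Foxo1 alone passed, with a median log2 fold of 0.14 against -0.04 over all genes. Irs2, an adaptor of the insulin receptor and a known Foxo1 target, was read at 21.1, 81.4 and 31.2 CPM in R245W and at 9.52 to 20.9 CPM in p53 het, without overlap (log2 fold 1.53 ± 0.48, adjusted p = 0.230). Pdk4, a kinase that restrains pyruvate oxidation and another known target, was read at 69.0, 120 and 159 CPM against 33.8 to 53.7 CPM, also without overlap (1.23 ± 0.60, adjusted p = 0.411). Of all genes tested, 6.21% did not overlap in this direction. Igf1, a growth factor, overlapped between the groups and had a log2 fold of -0.86 ± 0.36, and Foxo3 one of 0.36 ± 0.24.

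Of the 15 genes that passed against p53 het, 12 also passed against R172H (32 of 20616 genes passed there, 0.155%) and 14 against R270H (255 genes, 1.24%). All 3 comparisons use the same R245W libraries. Every R172H title carries a serial number and no R270H title does. Against R270H, genotype and anything that goes with the title code therefore cannot be told apart. In all 15 genes the R245W tumours overlapped with neither R172H nor R270H tumours, as did 5.24% and 12.9% of all genes tested. Foxo1 passed in neither, with log2 folds of 1.37 (adjusted p = 0.140) and 1.12 (adjusted p = 0.107), and its highest R270H tumour reached 83.0 CPM against 85.2 CPM in the lowest R245W tumour. Rpl34 and Zcchc17 passed against R270H and not against R172H (adjusted p = 0.0557 and 0.317).

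Trp53 itself (chr11:69580359-69591873) was read at 57.5, 74.0 and 61.9 CPM in R245W and at 13.5, 26.98, 22.2 and 18.01 CPM in p53 het. All R245W tumours lay above all p53 het tumours, and the counts do not separate the mutant from the wild-type allele. The R172H tumours, at 36.3 to 71.3 CPM, overlapped with R245W, and the R270H tumours, at 26.5 to 53.2 CPM, lay below it. The log2 fold of 1.57 ± 0.30 did not pass (adjusted p = 0.0744, edgeR), nor did that against p53 het 1 and 2 (1.48 ± 0.40, adjusted p = 0.327); it passed without p53 het 2 (1.81, adjusted p = 0.0341).

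Among 26 genes that p53 is known to activate, none passed, 10 lay above 0 and 16 below, and the median log2 fold was -0.11 (-0.10 against p53 het 1 and 2). Cdkn1a, an inhibitor of cyclin-dependent kinases, was read at 62.0, 102 and 94.3 CPM in R245W and at 19.8, 60.9, 31.2 and 36.4 CPM in p53 het. The groups did not overlap, though R245W 1 and p53 het 2 were nearly equal (log2 fold 1.10 ± 0.48, adjusted p = 0.351; 0.88 ± 0.62 against p53 het 1 and 2). Tnfrsf10b, a death receptor, was the other member without overlap (6.21% of all genes tested in this direction). It was read at 16.4 to 20.9 CPM against 3.6 to 9.50 CPM (1.22 ± 0.43, adjusted p = 0.265). Mdm2, the ubiquitin ligase that degrades p53, was read at 49.1 to 57.8 CPM in R245W and 34.5 to 57.9 CPM in p53 het (log2 fold 0.02 ± 0.23, whose sign turned under other settings). Sesn2, a stress-induced inhibitor of mTORC1, had a log2 fold of -1.10 ± 0.39 with overlap. Summed over the 26 genes, R245W tumours held 715 to 774 CPM and p53 het tumours 681 to 767 CPM.

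In 19 genes reported elsewhere as targets of mutant p53, 8 lay above 0, none passed, and the median was -0.06 (0.29 against p53 het 1 and 2). Myc, the growth-promoting transcription factor, was read at 134, 378 and 226 CPM in R245W and at 36.6 to 83.9 CPM in p53 het (log2 fold 1.74 ± 0.45, adjusted p = 0.172; 1.46 ± 0.55 against p53 het 1 and 2). Its neighbour on chromosome 15, the long noncoding RNA Pvt1, was read at 85.0, 549.5 and 212 CPM against 18.02, 10.9, 14.6 and 40.2 CPM (3.73 ± 1.0, adjusted p = 0.194). Both were highest in R245W 2, and neither overlapped between the groups. Kmt2d, a histone methyltransferase, also did not overlap, at 300 to 448 CPM against 193 to 238 CPM (0.72 ± 0.24, adjusted p = 0.241). The same held for 6.21% of all genes tested in this direction. On the lower side Id4, an inhibitor of DNA binding by other transcription factors, did not overlap (2.9% of all genes tested in this direction). It was read at 0.137 to 0.178 CPM in R245W against 6.82 CPM in p53 het 1 and 0.221 to 0.702 CPM in the others (-3.71 ± 1.15, adjusted p = 0.219).

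Leaving out pseudogenes, genes known only by a model number and antigen receptor segments, 357 genes were higher and 318 lower in R245W with an unadjusted p under 0.05, no overlap between the groups and a mean of at least 1 CPM in either group. None of the 12 highest and 12 lowest log2 folds among them passed in edgeR (adjusted p = 0.160 to 0.341). The highest included Igf2bp1, Necab2, Eno1b, Gbp2b, Phyhip, Kcnf1, Pvt1, Elfn1, Apol11b, Pcdhb11 and F5. The lowest were Irx2, Pet2, Nrn1, Tmem45b, Piwil2, Rny3, Fam83a, Calml3, Pde1c, Dmrta2, Fgf21 and Cma1.

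In several of these genes 1 tumour set the fold. Igf2bp1, a fetal RNA-binding protein that stabilises growth-promoting messenger RNAs, was read at 5.04, 48.7 and 1.34 CPM in R245W and at 0.0342 to 0.631 CPM in p53 het (log2 fold 6.39 ± 1.99). R245W 2 was far above the other R245W tumours. Others were even across the R245W tumours: Gbp2b, a guanylate-binding protein induced by interferon, at 22.8, 16.3 and 19.4 CPM against 0.176 to 1.78 CPM (4.30 ± 1.40), and Phyhip at 7.27, 4.33 and 6.18 CPM against 0.0439 to 0.591 CPM (3.91 ± 1.01). Eno1b, a retrotransposed copy of an enolase gene, was at 31.0, 35.3 and 28.6 CPM against 5.40 CPM in p53 het 1 and 0.0368 to 0.274 CPM in the others (4.36 ± 1.83). The search for copies covered only genes that passed, so a split of reads between Eno1b and its parent gene was not examined.

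On the lower side, Piwil2, a Piwi protein normally made in the germline, was read at 0.847, 0.410 and 2.004 CPM in R245W and at 99.7, 5.23, 55.5 and 73.2 CPM in p53 het (log2 fold -5.80 ± 1.38, adjusted p = 0.160). Cma1, a protease of mast cells, was at 0 to 0.376 CPM against 0.773 to 7.69 CPM (-4.08 ± 1.19). Irx2, a homeobox gene, was high in p53 het 1 and 2 alone, at 8.83 and 17.2 CPM, and lay at 0.0446 to 0.171 CPM in the other 5 tumours. Rny3, a small noncoding Y RNA, was high in p53 het 3 and 4 alone, at 2872 and 740.4 CPM against 30.7 to 32.6 CPM in p53 het 1 and 2 and 11.9 to 28.7 CPM in R245W. Its log2 fold went from -5.69 ± 1.30 to -0.94 ± 0.59 when only p53 het 1 and 2 were used.

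Of 42 gene lists, none beyond those that hold Foxo1, Ndufs5 and Rpl34 had a member that passed. Among interferon-response genes all 28 lay below 0 in R245W, with a median log2 fold of -1.13 against p53 het and -1.47 against p53 het 1 and 2. None passed and 6 did not overlap, as did 2.9% of all genes tested in this direction. Gbp2b, described above as induced by interferon, is not in this list and was higher in R245W. Bst2, a membrane protein that tethers viruses, overlapped, because p53 het 1 at 10.7 CPM lay below the R245W range of 13.0 to 15.6 CPM (-1.81 ± 0.60, adjusted p = 0.243). The summed list was 460 to 851 CPM in R245W and 718, 2207, 1016 and 1124 CPM in p53 het 1 to 4, so the groups overlapped, and without p53 het 2 the median was -0.69. All 11 genes of class I antigen presentation also lay below 0 (median -0.50; -1.03 without R245W 1 and -0.25 without R245W 2).

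Markers of T and NK cells lay below 0 in 18 of 20 genes, with a median log2 fold of -1.29 against p53 het and -1.23 against p53 het 1 and 2; none passed and 3 did not overlap (2.9% of all genes tested in this direction). Cd8b1, which encodes one chain of CD8, was at 0.223, 0.0911 and 0.668 CPM in R245W and at 1.54, 4.45, 2.19 and 1.44 CPM in p53 het (-2.99 ± 0.72, adjusted p = 0.160). Cd3g, a chain of the T cell receptor complex, was at 0 to 0.793 CPM against 0.993 to 3.25 CPM (-2.18 ± 0.91, adjusted p = 0.339). All of these levels were low. The summed list overlapped, at 61.0, 17.1 and 48.6 CPM against 38.5 to 116 CPM, and the median was -0.83 without R245W 2 and -2.51 without R245W 3. In bulk tumours fewer cells of a type and less RNA per cell cannot be told apart.

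Fibroblast markers lay below 0 in 14 of 15 genes tested (median -1.09; -0.80 against p53 het 1 and 2; -1.73 without R245W 3); none passed and 2 did not overlap (2.9% of all genes tested in this direction). Postn, the matrix protein periostin, was read at 329, 36.5 and 150 CPM in R245W and at 853, 1898, 1674 and 1156 CPM in p53 het (-3.14 ± 1.12, adjusted p = 0.272). Lum, the proteoglycan lumican, was at 33.8, 5.01 and 21.1 CPM against 115, 450, 97.0 and 331 CPM (-3.76 ± 1.19, adjusted p = 0.231). R245W 2 was lowest in both. Dcn, decorin, had a log2 fold of -3.32 ± 1.15 but overlapped, as p53 het 3 and 4 were read at 125 and 152 CPM against 1334 and 1312 CPM in p53 het 1 and 2. The summed fibroblast list did not overlap, at 1119 to 3028 CPM in R245W and 3627 to 8845 CPM in p53 het. Fibrillar and network collagens lay below 0 in 15 of 16 genes (median -0.52; -0.47 against p53 het 1 and 2), with sums that overlapped.

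The markers of bone itself were mixed: 6 of 15 osteoblast and osteocyte genes lay above 0 and 9 below (median -0.17; -0.41 against p53 het 1 and 2), none passed, and Dlx5, an osteoblast homeobox factor, alone did not overlap (28.5 to 39.1 CPM against 11.9 to 26 CPM; 0.75 ± 0.51, adjusted p = 0.562). Bglap, osteocalcin, a product of mature osteoblasts, was read at 9.32, 1.09 and 5.64 CPM in R245W and at 44.9, 90.3, 105 and 0.890 CPM in p53 het (-3.65 ± 1.33, adjusted p = 0.284). p53 het 4 alone broke the separation. Among cartilage genes Comp, a matrix protein, did not overlap, at 1.32 to 4.80 CPM against 11.0 to 60.4 CPM (-3.45 ± 0.98, adjusted p = 0.202), while 9 of 14 genes of that list lay below 0. Without overlap were 2.9% of all genes tested in the direction of Comp and 6.21% in that of Dlx5.

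**Figure D4:**
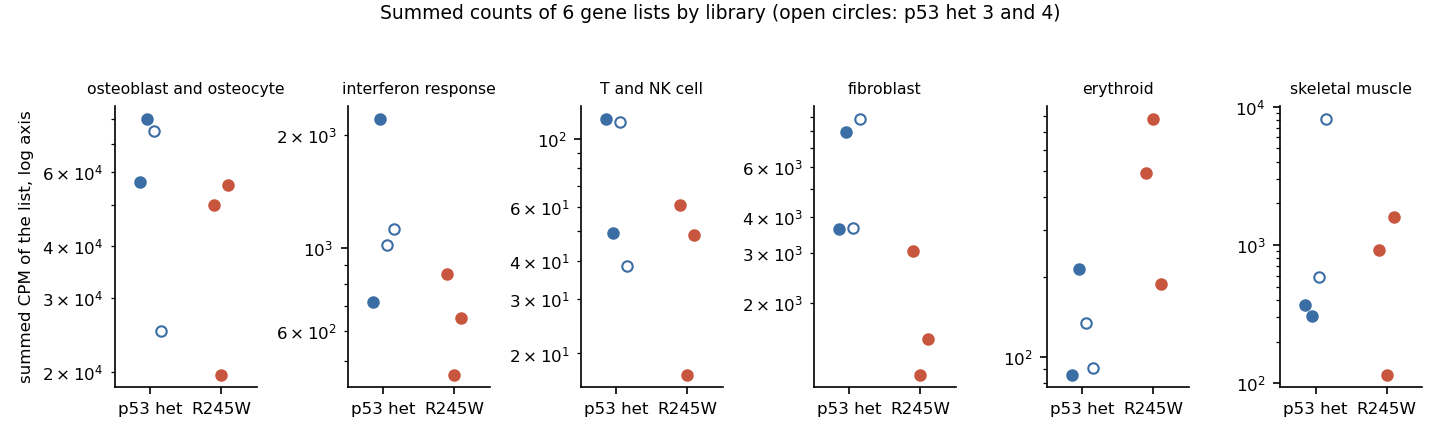
Summed CPM (log axis, a separate scale for each panel) of 6 gene lists by library, with blue for p53 het (open circles for p53 het 3 and 4) and red for R245W. The fibroblast sums do not overlap between the groups, the interferon, T and NK cell, osteoblast and erythroid sums do, and p53 het 4 is alone at the top of the skeletal muscle panel.

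Red blood cell genes lay above 0 in 12 of 13 genes, with a median log2 fold of 1.85 (1.58 against p53 het 1 and 2); none passed and 4 did not overlap (6.21% of all genes tested in this direction). Alas2, the first enzyme of haem synthesis in red cell precursors, was read at 23.8, 33.7 and 15.9 CPM in R245W and at 7.84 to 13.7 CPM in p53 het (1.13 ± 0.60, adjusted p = 0.446). Hbb-bs, a beta globin, overlapped, at 282, 480 and 61.1 CPM against 37.9 to 118 CPM (1.85 ± 0.98, adjusted p = 0.451). Neutrophil genes lay above 0 in 11 of 13 (median 1.38; 0.71 against p53 het 1 and 2) but not evenly: their sums were 105, 21.6 and 261 CPM in R245W and 26.6 to 119 CPM in p53 het, and the median was 0.19 without R245W 3.

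Complex I, to which Ndufs5 belongs, lay below 0 in 28 of 36 genes against all p53 het tumours, with a median of -0.33, and in 18 of 36 against p53 het 1 and 2, with a median of 0.00. Ndufs5 alone passed. Ndufa3, another small subunit, did not overlap, at 25, 23.8 and 14.4 CPM against 31.0, 34.9, 78.9 and 32.4 CPM (-1.16 ± 0.30, adjusted p = 0.183). With Ndufs5, 2 of the 36 genes were lower without overlap, as were 2.9% of all genes tested. Ndufa2 was read at 13.9 to 25.2 CPM in R245W, at 16.8 and 14.1 CPM in p53 het 1 and 2 and at 122 and 91.8 CPM in p53 het 3 and 4, so its log2 fold turned from -1.75 to 0.10 with p53 het 1 and 2 alone. The other respiratory complexes followed the same split, with 32 of 36 genes below 0 against all p53 het tumours (median -0.39; -0.06 without p53 het 3) and 17 of 36 against p53 het 1 and 2. The title code of p53 het 3 and 4, and anything that goes with it, cannot be told apart from these tumours' own levels.

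Genes of the unfolded protein response lay below 0 in 17 of 20 in both comparisons (medians -0.46 and -0.43; -0.27 without p53 het 2 and -0.28 without R245W 2). Xbp1, its main transcription factor, was read at 115, 139.95 and 94.7 CPM in R245W and at 221, 224.9, 181 and 217 CPM in p53 het, clearly apart (-0.94 ± 0.27, adjusted p = 0.202, edgeR). Creld2, a chaperone of the endoplasmic reticulum, was at 14.1 to 30.8 CPM against 41.0 to 50.8 CPM, also without overlap (-0.96 ± 0.40, adjusted p = 0.341). None of the 20 passed, and 2 were lower without overlap, as were 2.9% of all genes tested.

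Proliferation genes depended on single tumours, p53 het 4 and R245W 2. All 18 mitosis genes lay above 0 against p53 het 1 and 2 (median 0.49), and 8 of 18 did against all p53 het tumours (median -0.03; 0.40 without p53 het 4 and -0.39 without R245W 2). Mki67, a marker of dividing cells, was read at 344, 553 and 253 CPM in R245W and at 154, 143, 188 and 477 CPM in p53 het 1 to 4. Each R245W tumour lay above p53 het 1 to 3. DNA replication genes lay above 0 in 14 of 18 (median 0.31) and in 17 of 18 against p53 het 1 and 2 (0.58), but the median was -0.20 without R245W 2, the tumour with the highest sum. In the RB pathway, Cdk6, a kinase that starts the cell cycle, was at 489.8, 239 and 170.1 CPM against 82.5 to 189.9 CPM, with overlap (1.16 ± 0.34, adjusted p = 0.208), and Cdkn2c, an inhibitor of that kinase, at 15.1 to 17.9 CPM against 21.5 to 36.4 CPM, without overlap (-0.70 ± 0.28, adjusted p = 0.319). Lower without overlap were 2.9% of all genes tested.

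Skeletal muscle genes showed how far 1 tumour can carry a list: all 16 lay below 0 against p53 het (median -1.34) and all 16 above 0 against p53 het 1 and 2 (median 2.0), and the median was 1.88 without p53 het 4. Wnt signalling genes lay below 0 in 14 of 23 (median -0.39; -0.35 against p53 het 1 and 2). Wnt5b, a Wnt ligand, did not overlap, at 2.19 to 7.81 CPM in R245W and 8.36 to 17.2 CPM in p53 het (-1.78 ± 0.62, adjusted p = 0.261). Lrp6, a Wnt co-receptor, did not overlap in the other direction, at 243 to 290 CPM against 147 to 229 CPM (0.50 ± 0.18, adjusted p = 0.284). In the Wnt list 3 genes were lower and 2 higher without overlap. Over all genes tested these shares were 2.9% and 6.21%. Notch3, a receptor of pericytes and smooth muscle, was at 157 to 295 CPM against 23.8 to 136 CPM (1.48 ± 0.50, adjusted p = 0.253). Hoxa9, a limb and trunk patterning gene, was at 25.6 to 33.8 CPM against 0.0439 to 20.6 CPM (1.24 ± 0.89, adjusted p = 0.584), while Hoxa13 was above the floor in p53 het 1 and 2 alone, at 7.14 and 6.81 CPM.

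**Figure D5:**
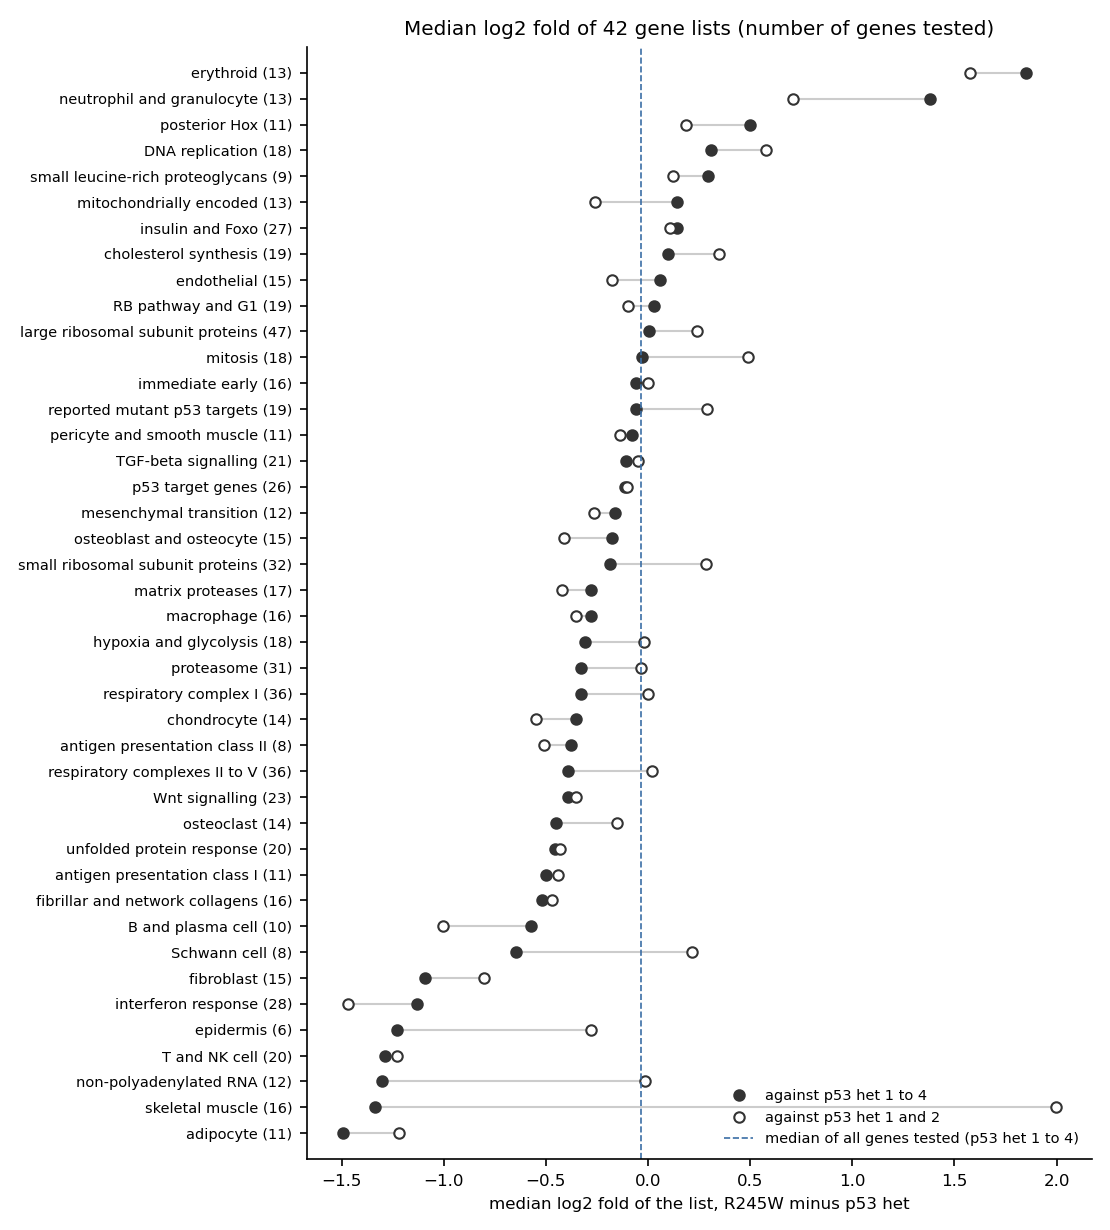
Median log2 fold (R245W minus p53 het) of 42 gene lists, with the number of genes tested in brackets; filled circles use all 4 p53 het tumours and open circles p53 het 1 and 2. The dashed line is the median of all genes (-0.04), and the widest gap between the circles, from -1.34 to 2.0, is that of skeletal muscle.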

How the data were processed

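The deposited table holds raw counts, whole numbers per gene and library, that the authors made from reads aligned to GRCm38 with STAR 2.6.0b and compared with DESeq2, per the submitters' processing notes and the labels. The counting program, its annotation and its strand setting are not given in the sources used here. Of 49585 gene IDs, 49326 matched GENCODE M21 (GRCm38), which gave symbols, positions and sequences. Counts were tested in R 4.3.3 with edgeR 4.0.16: filterByExpr by genotype (minimum count 10, minimum total 15), TMM scaling, 1 quasi-likelihood model fitted to all 18 tumours by genotype (residual degrees of freedom 14, or 12 without p53 het 3 and 4), and Benjamini-Hochberg adjustment over all genes tested, threshold 0.05. Folds are R245W minus p53 het on the log2 scale; an SE is the fold divided by the square root of F. CPM is counts per 1000000 counts of the library, without TMM.

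Genes named are Trp53, Cdkn1a and Mdm2, every gene that passed, the 12 highest and 12 lowest folds without overlap, and members of lowest p in gene lists; a few genes the rule names are not reported here. The lists, the members and the comparison were chosen with earlier results of these data known; lists are described by counts and medians and were not tested. Near-identical copies (at least 90% identity over 150 bases and over 80% of the shorter transcript) were found with BLAST 2.17.0. DESeq2 1.42.0, limma 3.58.1 with voom and quality weights, other scaling, no filter, only the groups compared, the title code as a covariate and leaving out each library were tried as alternatives. The fits were tested on simulated data, with known changes in genes of at least 1 CPM. Against all p53 het tumours edgeR recovered 10.4, 55.2 and 93.9% of 2-, 4- and 8-fold changes, with 3 false calls among 109. DESeq2 recovered 22.4, 74.6 and 97.0%, with 46 false calls among 175. Against p53 het 1 and 2 edgeR recovered 1.49, 31.3 and 74.2%. With total counts of 21964474 to 29211623, 3 counts correspond to 0.103 to 0.137 CPM in these 7 libraries.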

Additional observations from a re-analysis of the deposited data

Results flagged for a closer look

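Among the 146 p53 het values checked for a single tumour far from the other 3, 20 stood out. Many of the genes were chosen from these same data, and several values share the same counts, so this number cannot be set against chance. Most lay in p53 het 4. It had 7.91 CPM of Ndufs5 (others 18.6 to 19.1), 12.7 CPM of BC002163 (others 0.0736 to 0.307) and 61.6% of the Ndufs5 counts on the copy (others 0.383 to 1.62%). It also had 5.07 CPM of Tmem45b (others 0.132 to 0.158), 36.4 CPM of Cdkn2c (21.5 to 23.8), 110 CPM of Mcm2 (47.4 to 56.8), 477 CPM of Mki67 (143 to 188) and 103 CPM of Cenpf (41.4 to 51.6). Its summed lists stood at 2090 CPM for mitosis (684 to 923), 8170 CPM for skeletal muscle (305 to 586) and 25 CPM for epidermis (8.99 to 9.48).

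p53 het 1 stood apart in Eno1b at 5.40 CPM (others 0.0368 to 0.274), Pet2 at 115 CPM (1.84 to 3.15), Ei24 at 58.9 CPM (37.7 to 40.7), Id4 at 6.82 CPM (0.221 to 0.702) and, on the low side, the share of Cox7a2l counts on copies at 0.0605% (0.281 to 0.309%). p53 het 3 stood apart in Kmt2a at 95 CPM (others 132 to 138), Ndufa3 at 78.9 CPM (31.0 to 34.9), Klrb1c at 1.23 CPM (0.237 to 0.368) and Xbp1 at 181 CPM (217 to 224.9).

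The 2 libraries of cell line 14, which enter none of the comparisons, also placed counts on the copies. The line's label gives p53R245/O without naming the substituted residue. The share on copies was 92.0% (control) and 93.7% (p53 siRNA) for Ndufs5, 35.2 and 35.1% for Cox7a2l, 26.6 and 28.5% for Rpl3 and 43.2 and 45.1% for Rpl15, each above the highest p53 het tumour (61.6, 0.309, 0.857 and 11.8%). For Rpl34 the share was 1.92 and 2.10%, below the 56.3 to 65.9% of the R245W tumours.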

How the results depend on the processing

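The number of genes that passed against p53 het (15) was 363 in DESeq2, 8 with the title code as a covariate, 4 with only the groups compared in the fit, and 5 to 30 when 1 library was left out (5 without R245W 1, 8 without p53 het 3, 29 without p53 het 1 and 30 without p53 het 2). Against p53 het 1 and 2 (9) it was 164 in DESeq2, 4 in limma with voom, 5 with only the groups compared and 2 to 14 when 1 library was left out (2 without p53 het 2, 4 without R245W 1 or R245W 2 and 14 without p53 het 1). Against R172H (32) it was 348 in DESeq2, 119 in limma with voom and 14 to 25 when 1 library was left out. Against R270H (255) it was 1194 in DESeq2, 1047 in limma with voom, 109 without the low-count filter and 48 to 208 when 1 library was left out. Of the 15 genes, Rpl3-ps1, Gm6969 and Gm10020 passed in all 14 alternatives; Ndufs5 and Rpl15-ps2 lost the call with only the groups compared (adjusted p = 0.0993 and 0.0832), Rhbdl2 passed in 11, G530011O06Rik in 9, 2610507I01Rik and Rpl34 in 8, Gm12904 in 8 of 13, Gm8420 and Gm26510 in 7, Gm18862 in 6 (DESeq2 gave it no adjusted p), Zcchc17 in 5 and Foxo1 in 3. BC002163 passed in limma with voom on all tumours (log2 fold 5.24), in edgeR without p53 het 4 (6.59) and in edgeR against p53 het 1 and 2 (7.05). The fold of Mdm2 turned from 0.02 to -0.068 in limma with voom, -0.10 with the title code, -0.11 against p53 het 1 and 2, and -0.09 and -0.14 without R245W 2 and p53 het 4, with -0.14 to 0.12 over all fits that left out 1 library. That of Ndufa2 turned to 0.11 with the title code and 0.10 against p53 het 1 and 2. These settings are nearly the same check, also among the 14 alternatives, because the title code differed within no genotype but p53 het. The summed Ndufs5 counts differed by 0.06 (log2) in place of 0.14 after TMM scaling, an alternative chosen after seeing the data. The causes were not tested. No paired analysis was possible because the labels number no tumours across groups, and the numbers used here only name them. With 3 and 4 tumours the precision is set by the spread between tumours, and intervals and floors cover counting error only.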
